A study of Mus musculus with 15 samples.

Results

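Keratin messenger RNAs were examined among the RNA recovered with the RNA-binding protein Mbnl3 from the forelimb of mouse embryos. The keratin tags are the sequenced CLIP tags whose midpoint lies on the minus strand of the type II keratin gene cluster, at chr15:101170000-101860000, or of the type I keratin gene cluster, at chr11:99090000-100130000, of the mm9 build. They numbered 5810 of 366854 forelimb tags, or 1.58%, and lay in 322 of 191766 tag clusters and in 55 of 113313 loci. A cluster is a run of same-strand tags, each sharing 1 nt or more with the next, and a locus joins tags with gaps of up to 1000 nt. In a set of C2C12 cells, 108 of 550124 tags lay in the same windows and strand. The windows and 6 genes in them (Krt1, Krt4, Krt77, Krt10, Krt5 and Krt14) were chosen for their high tag level in WT forelimb and low level in C2C12, so these levels are given as a description. Genotype was not used in the choice, but the WT libraries were, and they are also 1 side of each comparison of genotypes. A choice for high WT values can by itself make ΔE2 look lower, and how far it did was not tested.

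HITS-CLIP crosslinks RNA to protein with ultraviolet light, precipitates the protein with an antibody (here anti-Mbnl3, Mb3/7) and sequences the attached RNA as short tags. Libraries came from BL6 forelimbs at E15 of homozygous Mbnl3 ΔE2/ΔE2 embryos, called ΔE2 here and titled Mbnl3 KO, and of wild-type (WT) embryos, with 3 libraries per genotype, each from 4 forelimbs of 2 embryos. C2C12, a mouse myoblast line of WT genotype, was grown in medium with 20% serum, and its 3 libraries were combined by the authors. A table of cassette exons from RNA-seq of 3 ΔE2 and 3 WT female forelimbs completes the data. The sources used here do not give whether the ΔE2 allele leaves any protein that the antibody recognises. The deposited names of the ΔE2 CLIP libraries carry another number than those of WT and C2C12, and its meaning is not given. Any difference in handling that it stands for cannot be told apart from genotype.

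Keratins are the proteins of the intermediate filaments of epithelial cells. Each filament is built from pairs of 1 type I and 1 type II keratin, and the pair in use marks the layer and maturity of the epithelium: Krt5 with Krt14 or Krt15 in the basal layer of the epidermis, and Krt1 with Krt10 in the suprabasal layers above it, where cells begin to differentiate. Muscleblind proteins, of which Mbnl3 is 1, bind RNA, regulate alternative splicing and also bind the 3′ untranslated regions of many mRNAs. The embryonic forelimb is a mixture of skin, muscle, cartilage and other tissues, so fewer skin cells and less keratin RNA per cell cannot be told apart, nor can either be told from less recovery by CLIP. The RNA level of the keratins and markers of the other forelimb tissues were not analysed here.

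Gene names were given by laying the order and spacing of the keratin genes of a RefSeq table, of another build, over the tags. In the 6 intervals between neighbouring named loci, from 13353 to 746525 nt long, the spacing of the tags differed from that of RefSeq's genes by 3 to 48 nt. Of the tags, 99.0% in the type II window and 99.4% in the type I window then fell within a keratin gene's span. The genes were laid where this share was highest, and positions over 5000 nt away still reached 94.5% and 94.6%, so it is a weak check of the names. Of 52 keratin genes laid over on this strand, 24 held at least 1 tag, 13 held at least 20 and 28 held none. The strand of 11 of the 25 type II and 7 of the 27 type I genes was not known and was taken to be this one. In all, 15 tags lay over 500 nt from any of these genes and have no name. Krt6a and Krt6b, and also Krt14, Krt16 and Krt17, are close paralogs, and the sources used here do not give how the authors placed tags that match more than 1 of them.

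The libraries were not fully separate. ΔE2 replicates 2 and 3 shared 85.1% and 57.4% of their keratin tags as the same position and barcode, and were counted as 1 library here. This left 2 ΔE2 libraries, of 67279 and 65730 tags (928 and 669 keratin tags), and 3 WT libraries, of 35413, 74123 and 124309 tags (704, 1298 and 2211 keratin tags). ΔE2 replicate 1 had 6489022 reads and the WT libraries 2538099, 6786369 and 7679714. ΔE2 replicates 2 and 3, with 40531 and 59115 tags, had 10830531 and 25298063 reads, so more reads per tag than the others. How this bears on the results below was not tested. Tags were also shared between the genotypes: 329 of the 928 keratin tags of ΔE2 replicate 1, or 35.5%, were listed in WT replicate 3 as well, and 17.3% in WT replicate 2. Over all tags, 30.1% of ΔE2 replicate 1, with 59.2% of its reads, were in WT replicate 3. The WT libraries shared tags with each other too: 24.6% of the keratin tags of WT replicate 1 were in WT replicate 2 and 24.6% in WT replicate 3, and 26.7% of those of WT replicate 2 were in WT replicate 3. Over all tags, 32.4% of WT replicate 2, with 80.9% of its reads, were in WT replicate 3, so the WT spread comes from libraries that are not fully separate. Results between genotypes are therefore given also with molecules found in 1 library only. That count leaves out 44.5% and 14.2% of the keratin tags in ΔE2 and 38.6%, 38.1% and 30.2% in WT. It thus removes unequal parts of the libraries, among them tags that the genotypes share, and can widen a difference by itself. No keratin tag of the forelimb libraries was shared with C2C12. The labels call the replicates biological, and p-values measure the spread between these libraries.

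Keratin tags belonged mostly to genes of the epidermis and other stratified epithelia, and most of them lay in 8 genes. Krt1, Krt15 and Krt4 held 54.3% of them, and Krt1, Krt15, Krt4, Krt10, Krt77, Krt5, Krt6a and Krt14 together 96.0%. The 6 genes named in the choice held 72.3%; Krt15, with 949 tags, and Krt6a, with 433, were the largest of the others. Levels below are in RPM, here the tags of a gene per 1000000 tags of the library.

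Krt1, the type II keratin of the suprabasal epidermis, had the most tags of any keratin gene. Its level was 3255 and 2160 RPM in the ΔE2 libraries and 3869, 4034 and 4231 in the WT libraries. The WT libraries lay close together, and both ΔE2 libraries lay below them. Krt10, its type I partner, had 1828 and 1080 RPM in ΔE2 and 2739, 1740 and 2188 in WT, so that ΔE2 replicate 1 lay within the WT range. There were 56.2 and 50 Krt10 tags per 100 Krt1 tags in ΔE2, and 70.8, 43.1 and 51.7 in WT, and these ranges overlapped. Krt77, another suprabasal type II keratin, had 1457 and 761 RPM in ΔE2 and 2824, 2105 and 2244 in WT. Its tags were also scarcer beside those of Krt1, at 44.7 and 35.2 per 100 Krt1 tags in ΔE2 against 73.0, 52.2 and 53.0 in WT, with no overlap. Krt2, a keratin of later suprabasal layers, had no forelimb tag.

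Among basal keratins, Krt5, the type II keratin of the basal layer, had 1234 and 1278 RPM in ΔE2 and 1440, 1605 and 1633 in WT. Krt15, a basal type I keratin, had 2482 and 1750 in ΔE2 and 2485, 3036 and 2848 in WT, the nearest ΔE2 and WT libraries being almost equal. Krt14, the main type I partner of Krt5 in adult epidermis, had few tags: 9 and 6 in the ΔE2 libraries and 9, 16 and 35 in the WT libraries, or 134 and 91.3 RPM in ΔE2 and 254, 216 and 282 in WT. There were 10.8 and 7.14 Krt14 tags per 100 Krt5 tags in ΔE2 and 17.6, 13.4 and 17.2 in WT. Krt15 had 201 and 137 tags per 100 Krt5 tags in ΔE2 and 173, 189 and 174 in WT. Its ratio overlapped between the genotypes and that of Krt14 did not, but the Krt14 ratio in ΔE2 rests on only 9 and 6 tags.

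Krt4, known from the upper layers of stratified epithelia that do not keratinise, such as the oesophagus, had 2036 and 2100 RPM in ΔE2 and 3332, 2604 and 2405 in WT. Its usual type I partner Krt13 had only 21 tags in all. Krt6a, known in mouse from the periderm, the outer sheet of embryonic skin, and from hair follicles, had 832 and 517 RPM in ΔE2 and 1977, 1498 and 1303 in WT. Krt6a tags per 100 Krt5 tags were 67.5 and 40.5 in ΔE2 and 137, 93.3 and 79.8 in WT, again with no overlap. How often ratios of gene pairs elsewhere separate the genotypes in this way was not tested. Krt17, found in periderm and skin appendages, had 36 tags in all, and Krt80, a type II keratin of several epithelia, 55. Krt80 had 104 and 15.2 RPM in ΔE2, the lower value from 1 tag, and 254, 135 and 225 in WT.

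Keratins of simple epithelia and of hair were sparse. Krt19, of simple epithelia, had 104 and 167 RPM in ΔE2 and 169, 121 and 88.5 in WT, which overlap. Krt8, the type II keratin of simple epithelia, had 7 tags in all. Of 20 genes of hair and the inner root sheath, 5 held tags, 37 in all, most of them in Krt36 (21 tags) and Krt84 (13 tags). The 11 genes with 1 to 19 tags held 38 tags together.

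**Figure D1:**
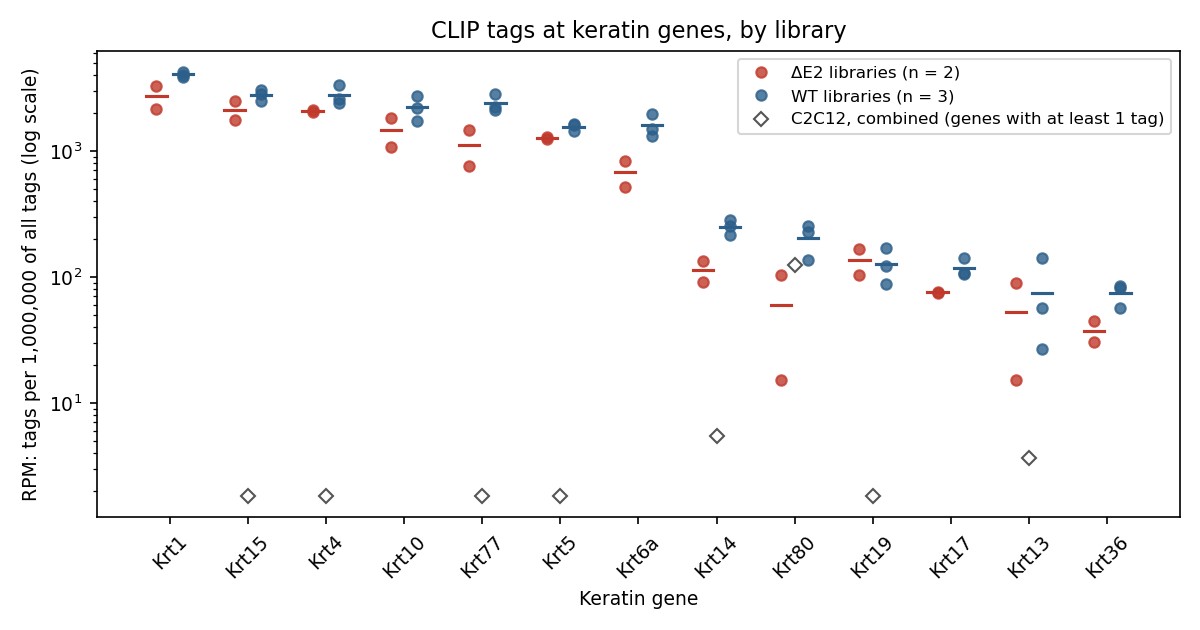
CLIP tags per 1000000 of all tags (RPM, log scale) at the 13 keratin genes with at least 20 forelimb tags; each filled point is a library, the ΔE2 libraries (n = 2) left of the WT libraries (n = 3), short lines are group means, and open diamonds are the combined C2C12 set where it had a tag. Krt1, Krt15 and Krt4 are highest in WT, no gene has both ΔE2 libraries above all WT libraries, and Krt80 is the only one of these genes above 10 RPM in C2C12.

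Per kilobase of gene span, Krt1 and Krt15 were highest in both genotypes. They stood at 505 ± 144 and 505 ± 124 RPM per kb in ΔE2 (SD, n = 2) and at 754 ± 33.9 and 666 ± 66.8 in WT (SD, n = 3). In WT the order went on with Krt4 at 448 ± 78.7, Krt6a at 364 ± 79.2, Krt5 at 267 ± 17.9, Krt77 at 218 ± 34.7, Krt10 at 182 ± 41.0 and Krt14 at 57.6 ± 7.6 RPM per kb (SD, n = 3). Of these neighbours, Krt15 and Krt4, and Krt10 and Krt14, stood more than 1 SD of each apart, and all other neighbours overlapped within 1 SD. The RefSeq span laid over Krt10, 12.2 kb, is longer than the 4104 nt its tags covered, which lowers its level per kb.

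Relative to all tags, the keratin windows held less in ΔE2 than in WT. The type II window had 8992 and 6953 RPM in ΔE2 and 13809, 12101 and 12131 in WT, a log2 ratio of -0.67. The type I window had 4801 and 3225 in ΔE2 and 6071, 5410 and 5655 in WT, a log2 ratio of -0.51. Both ΔE2 libraries were below all WT libraries in each window, and remained so with molecules of 1 library only, at log2 ratios of -0.95 and -0.66. By gene, 10 of the 13 with at least 20 tags were lower in ΔE2 with no overlap and 0 were higher. With molecules of 1 library only, 11 were lower, and that count has no share over all loci beside it here. By locus, which allows the comparison with the rest of the genome, 9 of 13 keratin loci with at least 20 tags were lower with no overlap and 2 higher. Of all 1905 such loci, 33.2% were lower and 9.24% higher. The 2 higher keratin loci had few tags. They were at Krt19, with 4 and 8 tags in ΔE2 and 1, 3 and 7 in WT, and within Krt77, at chr15:101693221-101697098, with 10 and 6 in ΔE2 and 3, 5 and 8 in WT. Among loci with at least 100 tags, 6 of 7 keratin loci were lower, where 52.7% of all 207 were, and 0 were higher, where 9.18% were. The median log2 ratio was -0.58 over the 13 keratin loci and -0.47 over all 1905, so loci elsewhere also stood lower in ΔE2 on this scale.

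The test across all features, edgeR with TMM scaling, sets aside the part of the difference that most features share. Of the 13 keratin loci with at least 20 tags, 9 passed its filter on low counts, and these held 95.01% of keratin tags; the others were at Krt19, Krt17 and, beside the main one, Krt77. It called 1 of the 9, and that locus was Krt77. Over all 672 tested loci it called 10.9%, with 2.53% lower and 8.33% higher in ΔE2. The Krt77 locus, at chr15:101688754-101691774, held 71 and 36 tags in ΔE2 and 93, 141 and 253 in WT. That gives 4710 and 3103 CPM in ΔE2 and 9147, 6692 and 6959 in WT, where CPM is tags per 1000000 tags in tested features after TMM scaling. The locus was lower in ΔE2 by a log2 fold of -0.93 ± 0.29 (standard error; edgeR quasi-likelihood test, Benjamini-Hochberg adjusted p = 0.036). With molecules of 1 library only the log2 fold was -1.14 (edgeR adjusted p = 0.033). The call was lost in 8 of 18 alternatives, with the same direction in each. With tags collapsed by 5′ end and strand the log2 fold was only -0.43 (edgeR adjusted p = 0.27). With WT replicates 2 and 3 as 1 library it was -1.02 (edgeR adjusted p = 0.091). The adjusted p was 0.088 with DESeq2, 0.071 without WT replicate 2, 0.091 without WT replicate 3 and 0.087 without ΔE2 replicate 3. Without the filter on low counts it was 0.65 by edgeR and 0.93 by DESeq2.

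The other tested loci did not pass. Krt6a had 3649 and 2844 CPM in ΔE2 and 6688, 5126 and 4318 in WT, a log2 fold of -0.68 ± 0.29 (standard error; edgeR adjusted p = 0.12). It passed in 5 of 18 alternatives by edgeR: scaling to library size (adjusted p = 0.031) or to all tags (0.0098), shared molecules given to 1 library (0.040), and 6 libraries as labelled without (0.021) and with (0.016) the replicate block. Krt80, whose locus held 6 and 0 tags in ΔE2 and 8, 10 and 25 in WT, had a log2 fold of -1.48 (edgeR adjusted p = 0.14). It passed in 3 of 12 alternatives by edgeR: library size (-1.73, adjusted p = 0.049), all tags (-1.99, adjusted p = 0.029) and without ΔE2 replicate 1 (adjusted p = 0.015), where the ΔE2 library left had 0 tags and the fitted fold is no bound. Krt14 had a log2 fold of -0.57 (edgeR adjusted p = 0.37). The CPM of these 3 did not overlap between the genotypes. With Krt77 that made 4 of 9 keratin loci lower with no overlap, where 24.4% of all tested loci were, and 0 higher, where 23.4% were. The remaining 5 had log2 folds near 0: Krt1 -0.07, Krt10 -0.09, Krt15 0.11, Krt4 0.13 and Krt5 0.22. Those of Krt15, Krt4 and Krt5 were negative when counts were scaled to library size or to all tags, which moved the median of all tested loci to -0.31 and -0.57. With TMM that median was -0.05, and the median of the 9 keratin loci -0.09.

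**Figure D2:**
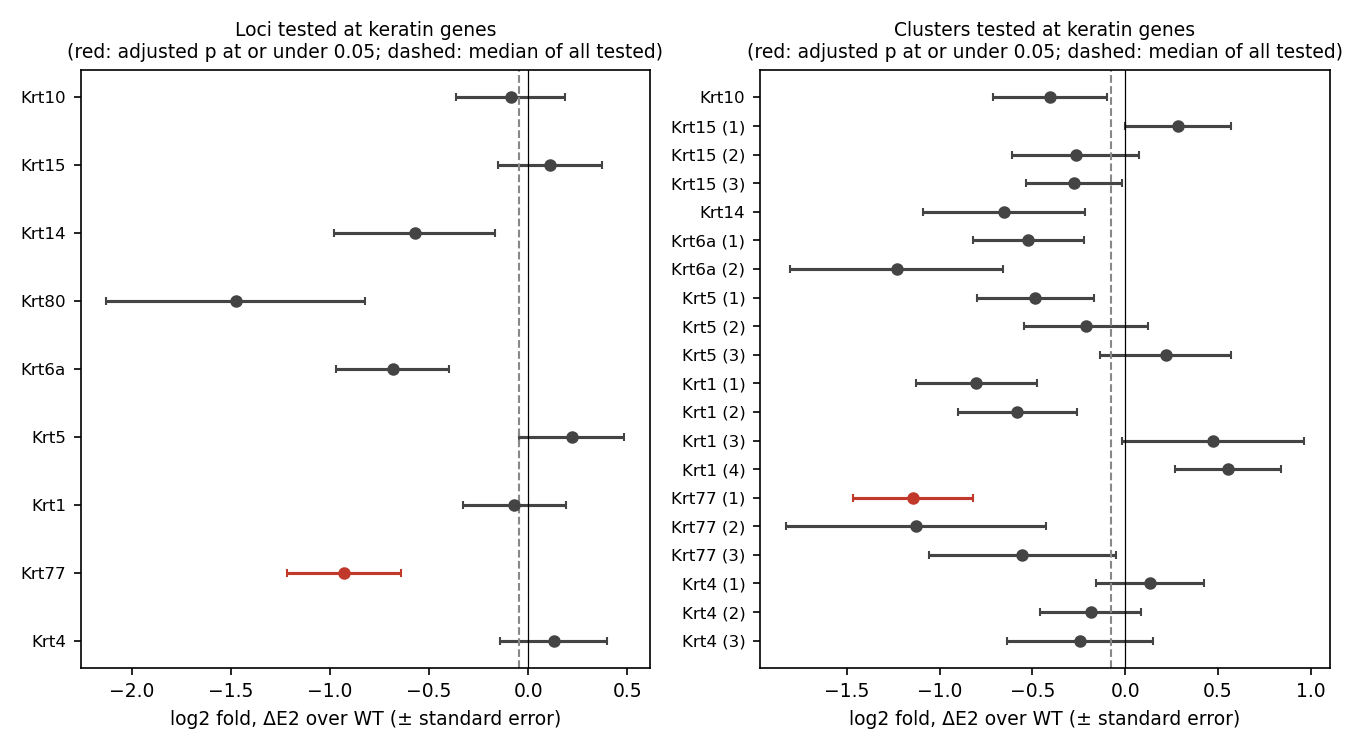
Log2 fold of ΔE2 over WT with its standard error (edgeR) for the 9 loci and 20 clusters tested at keratin genes, numbered from the 3′ end of the gene where it has several clusters. Krt77 is the only gene with a call (red, log2 fold -0.93 for its locus and -1.14 for its first cluster); in Krt1 the 2 clusters at the 3′ end lie below 0 and the 2 at the 5′ end above it.

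Clusters resolve where within a gene the tags lay. Of 20 tested keratin clusters edgeR called 1, against 22.5% of all 276 tested clusters (6.52% lower and 15.9% higher in ΔE2). The called cluster was the largest of Krt77, at chr15:101689208-101689454 in the part of the gene nearest its 3′ end. It is also 1 of the sites named in the choice, which used WT levels. It held 49 and 20 tags in ΔE2 and 68, 109 and 190 in WT, or 7007 and 3626 CPM in ΔE2 and 12710, 11087 and 12095 in WT. Its log2 fold was -1.14 ± 0.33 (standard error; edgeR adjusted p = 0.035), and -1.61 with molecules of 1 library only (edgeR adjusted p = 0.00094). The call was lost in 6 of 18 alternatives, all negative. With tags collapsed by 5′ end and strand the log2 fold was -0.57 (edgeR adjusted p = 0.11), and with WT replicates 2 and 3 as 1 library -1.20 (edgeR adjusted p = 0.092). Without WT replicate 2 or 3 the adjusted p was 0.079 and 0.075 by edgeR, and without the filter on low counts 0.91 by edgeR and 0.93 by DESeq2.

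In Krt1 the ends differed in sign, with no cluster past the threshold. The 2 large clusters near the 3′ end, at chr15:101675855-101676082 and chr15:101676124-101676363, had log2 folds of -0.80 (edgeR adjusted p = 0.11) and -0.58 (edgeR adjusted p = 0.20). The first held 48 and 21 tags in ΔE2 and 40, 98 and 165 in WT, and the second 75 and 32 in ΔE2 and 59, 129 and 206 in WT. The cluster near the 5′ end, at chr15:101680861-101681208, held 39 and 45 tags in ΔE2 and 22, 42 and 83 in WT, with a log2 fold of 0.56 (edgeR adjusted p = 0.19). The CPM of all 3 clusters did not overlap between the genotypes, the first pair being lower and the last higher in ΔE2. With molecules of 1 library only, both 3′ clusters of Krt1 passed, at -1.35 (edgeR adjusted p = 0.0054) and -1.47 (edgeR adjusted p = 0.0026), as did the larger cluster of Krt6a at -1.07 (edgeR adjusted p = 0.023). The 5′ cluster of Krt1 stood at 0.70 (edgeR adjusted p = 0.13) in that count.

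The sites at which Krt4 and Krt10 had most tags did not pass. The Krt4 cluster at chr15:101748980-101749189, at the 3′ end of its tagged stretch, held 68 and 78 tags in ΔE2 and 68, 99 and 157 in WT, a log2 fold of 0.13 (edgeR adjusted p = 0.75). The Krt10 cluster at chr11:99250054-99250673 held 90 and 48 tags in ΔE2 and 88, 114 and 238 in WT, a log2 fold of -0.40 (edgeR adjusted p = 0.35). In all, 8 of 20 keratin clusters were lower in ΔE2 with no overlap in CPM, where 28.6% of all tested clusters were, and 1 was higher, where 27.2% were.

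The place of the tags along the gene was then set out for the 7 genes with at least 100 tags. Transcription of these genes runs toward lower coordinates, so the 1000 nt at the lowest coordinates of each tagged stretch are called its 3′ end part, and the 1000 nt at the highest its 5′ end part. No mm9 annotation was used, so exons, introns and untranslated regions are not assigned. The windows were chosen by place in the genome. The choice also names sites in Krt1, Krt77, Krt4 and Krt10, each the largest cluster of its gene, so the end parts that hold them are not independent of it. The differences below were noticed in these data and are given without a test. An exact rank test of 2 against 3 libraries could not give a two-sided p below 0.2.

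In WT, 6 of the 7 genes had most of their tags in the 3′ end part, and Krt10 in the 5′ end part. Krt6a had 95.3% ± 1.6 of its tags in the 3′ end part in ΔE2 and 96.6% ± 0.5 in WT, and Krt4 had 78.5% ± 2.7 in ΔE2 and 83.5% ± 3.3 in WT (SD, n = 2 and 3). Krt15 had 65.2% ± 6.1 in ΔE2 and 64.1% ± 5.3 in WT, and Krt10 had 7.8% ± 5.1 in ΔE2 and 3.5% ± 2.6 in WT (SD, n = 2 and 3). Krt10 thus differed in place from the other 6. A smaller group of tags at the 5′ end was seen in Krt15, with 23.8% ± 3.2 in ΔE2 and 28.8% ± 6.5 in WT, and in Krt5, with 22.1% ± 2.4 in ΔE2 and 19.4% ± 3.4 in WT (SD, n = 2 and 3).

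In the ΔE2 libraries, Krt1, Krt77 and Krt5 had a smaller share in the 3′ end part. For Krt1 it was 57.5% and 38.7% in ΔE2 (126 of 219 and 55 of 142 tags) and 75.9%, 76.3% and 71.7% in WT. For Krt77 it was 58.2% and 46.0% in ΔE2 (57 of 98 and 23 of 50 tags) and 74.0%, 78.2% and 79.2% in WT. For Krt5 it was 53.0% and 35.7% in ΔE2 (44 of 83 and 30 of 84 tags) and 64.7%, 69.7% and 63.1% in WT. In each of these genes both ΔE2 libraries lay below all WT libraries, with differences between the group means of -26.5 percentage points for Krt1, -25.1 for Krt77 and -21.5 for Krt5. Krt4 had a smaller difference in the same direction, at 76.6% and 80.4% in ΔE2 and 87.3%, 82.4% and 80.9% in WT, where the nearest libraries were less than 1 percentage point apart. Krt15, at 69.5% and 60.9% in ΔE2 and 58.0%, 67.6% and 66.7% in WT, and Krt6a, at 96.4% and 94.1% in ΔE2 and 97.1%, 96.4% and 96.3% in WT, overlapped.

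The tags outside the 3′ end part lay both between the ends and at the 5′ end. Krt1 had 22.4% and 40.1% of its tags in the 5′ end part in ΔE2 and 21.2%, 19.7% and 21.5% in WT. Krt77 had 17.3% and 16.0% there in ΔE2 and 4.0%, 6.4% and 6.5% in WT. Both genes were higher in ΔE2 with no overlap, but for Krt1 the nearest libraries, at 22.4% in ΔE2 and 21.5% in WT, were less than 1 percentage point apart. Of the 117 loci genome-wide with at least 3000 nt and 100 tags, 25.6% were higher in the 5′ end part with no overlap and 12.8% lower; of the 6 keratin loci among them, where Krt77 enters with its main locus alone, 1 was higher and 1 lower. The tags at the 5′ end of Krt77 formed a locus of their own, at chr15:101699293-101700128, with 17 and 8 tags in ΔE2 and 4, 10 and 18 in WT, too few for the test. For Krt10, whose dense site is at the 5′ end, the 5′ end part held 73.2% and 69.0% in ΔE2 and 90.7%, 88.4% and 87.5% in WT, so that here the dense site had the smaller share in ΔE2. Over the 7 genes together, the stretch between the ends held 16.0% and 21.3% of tags in ΔE2 and 8.0%, 7.9% and 8.2% in WT. Both ΔE2 libraries stood above the WT range. The share between the ends was not taken over loci elsewhere, so whether this difference is particular to keratins is not known.

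**Figure D3:**
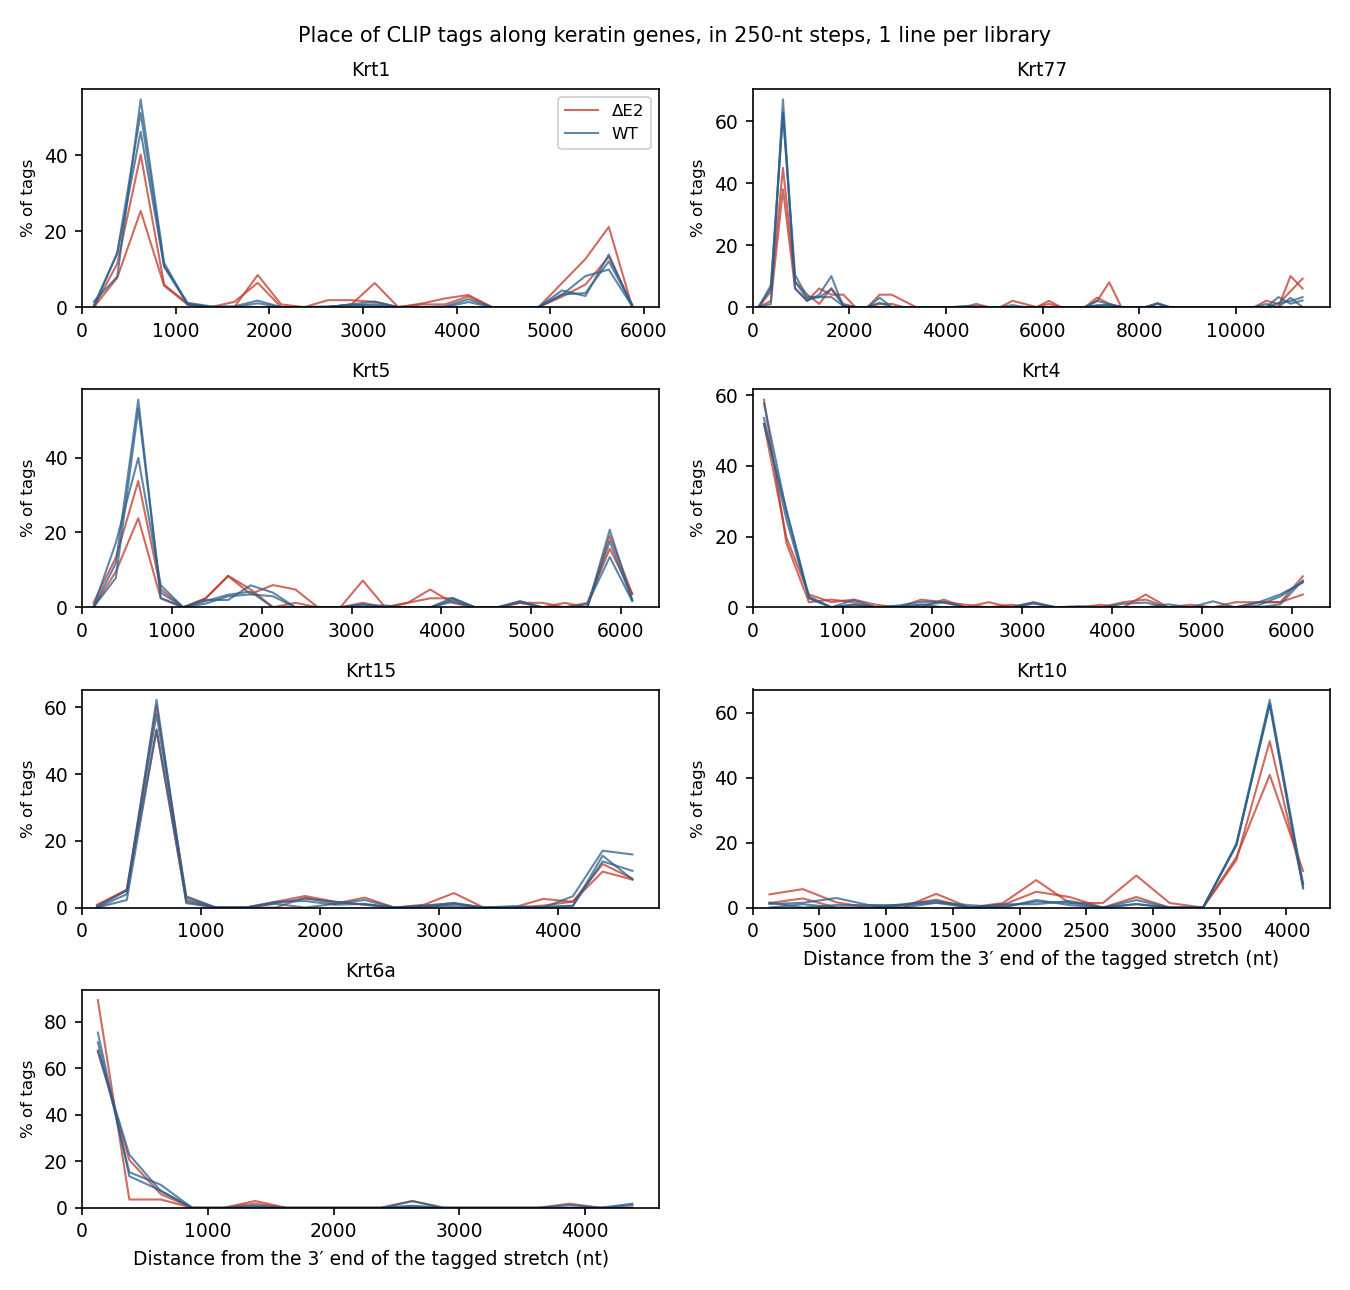
Percent of each gene's tags in steps of 250 nt against distance from the 3′ end of its tagged stretch, for the 7 keratin genes with at least 100 tags, with 1 line per library (ΔE2, n = 2; WT, n = 3). The peak near the 3′ end is lower in ΔE2 in Krt1, Krt77 and Krt5 and not in Krt15, and the tags of Krt10 gather at the other end, where ΔE2 is lower.

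Over the 7 genes together the 3′ end part held 58.4% and 51.1% of tags in ΔE2 and 65.7%, 69.4% and 65.7% in WT, a difference of -12.2 percentage points. The same measure was taken over every forelimb locus of at least 3000 nt and 100 tags, on either strand. Of 117 such loci, 16.2% were lower in ΔE2 with no overlap and 19.7% higher. Of the 6 keratin loci among them, 3 were lower and 0 higher. The lower ones were Krt1, Krt5 and Krt4. Krt77 entered with its main locus alone, and there the genotypes overlapped. The 3′ end part held 57 of 71 and 23 of 36 tags of that locus in ΔE2. In WT it held 74 of 93, 122 of 141 and 221 of 253. The share given for Krt77 above also counts its tags upstream of that locus. The median difference was -8.70 percentage points over the 6 keratin loci and 1.51 over the other 111. The keratin loci began from a higher share, with a WT median of 70.2% against 12.8% for the other loci.

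The difference over the 7 genes was -19.0 percentage points with molecules of 1 library only, at 49.7% in ΔE2 and 68.8% in WT. As said above, this count leaves out unequal parts of the libraries and can widen the difference by itself. In that count the mean share was 35.02% in ΔE2 and 76.8% in WT for Krt1, 44.5% in ΔE2 and 80.3% in WT for Krt77, and 37.3% in ΔE2 and 58.9% in WT for Krt5, with no overlap in any of them. It was -15.8 without ΔE2 replicate 1. Keratin tags of 35 nt or more made up 52.0% and 60.7% in ΔE2 and 51.1%, 46.7% and 46.9% in WT, and tags backed by a single read 42.1% and 34.4% in ΔE2 and 34.9%, 30.1% and 27.4% in WT. The difference was -9.88 percentage points with the longer tags alone, -12.4 with the shorter ones and -16.6 with tags of 2 or more reads. With an end part of 500 nt it was -1.44 and the genotypes overlapped: the peaks of Krt1, Krt77, Krt5 and Krt15 stood in the step centred 625 nt from the 3′ end. With 2000 nt it was -9.29.

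**Figure D4:**
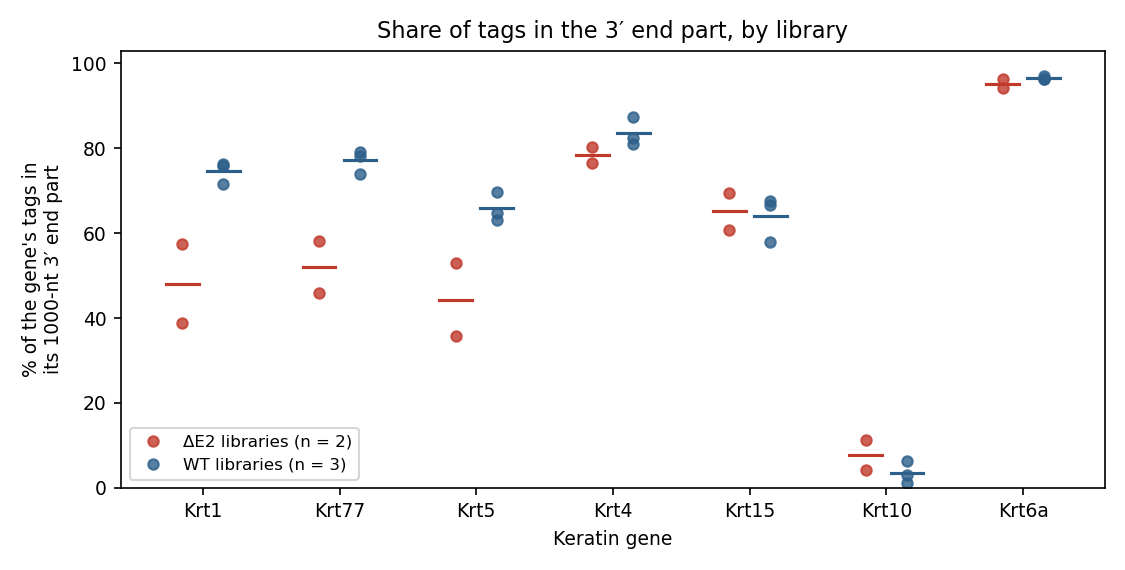
Percent of each gene's tags in its 1000-nt 3′ end part, by library, with ΔE2 libraries (n = 2) left of WT libraries (n = 3) and short lines for group means. ΔE2 lies below WT in Krt1 (57.5% and 38.7% in ΔE2), Krt77 and Krt5, just below it in Krt4, and overlaps it in Krt15, Krt10 and Krt6a.

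In C2C12 the type II window held 82 tags, or 149 RPM (95% Wilson interval 120 to 185), and the type I window 26 tags, or 47.3 RPM (32.3 to 69.3). Of these, 68 were in Krt80, 21 in other keratin genes and 19 in none. Krt80 had 59.6 ± 62.8 RPM in ΔE2 (SD, n = 2), 205 ± 62.2 in WT forelimb (SD, n = 3) and 124 in C2C12 (95% Wilson interval 97.5 to 157). Krt1, Krt10 and Krt6a had 0 tags in C2C12, which allows up to 5.45 RPM each at a limit of 3 tags (upper 95% Wilson bound 6.98 RPM). Krt77, Krt4, Krt5 and Krt15 had 1 each, and Krt14 had 3, or 5.45 RPM (95% Wilson interval 1.85 to 16.0). The sites in Krt1, Krt77, Krt4 and Krt10 named in the choice had 0. The C2C12 set was pooled by the authors, so it has no spread between replicates, and the intervals cover counting error only.

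Strand was used in the choice and is given as a description. In the forelimb libraries 98.9% of tags in the type II window and 99.3% in the type I window were on the minus strand, where these genes lie, against 50.3% of tags genome-wide. In C2C12 it was 88.2% and 52.0%. Of the 60 plus-strand forelimb tags in the windows, 32 lay in Krt7, a keratin of simple epithelia that is transcribed from the plus strand, and none of the 35 plus-strand C2C12 tags did.

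The clusters elsewhere whose tag levels ran most like the keratin windows were sought over the 5 forelimb libraries and C2C12, among 91 clusters with at least 100 forelimb tags. For the type II window these were chr7:149837875-149838141 and chr7:149836674-149836808 on the minus strand, with Pearson r of 0.998 each, and chr2:168006896-168007076 on the minus strand, with r of 0.997. For the type I window they were the same cluster on chromosome 2, with r of 0.998, and chr19:5800053-5800296 and chr11:19964359-19964441, both on the minus strand, with r of 0.997 each. These correlations are over 6 points, are shaped by the gap between forelimb and C2C12, and share the depth of the libraries, so they describe and do not test. The cluster at chr7:149836674-149836808 had 907 and 806 RPM in ΔE2 and 1468, 1511 and 1070 in WT, and 0 tags in C2C12.

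The authors' deposited table of cassette exons, from RNA-seq of ΔE2 and WT forelimbs, lists 98 events in 84 genes. None of them lies in a keratin gene or in the windows. The table holds cassette exons only, and no other RNA measure of the keratins was analysed here.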

How the data were processed

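Per the submitters' processing notes, Novoalign placed the CLIP tags on mm9; the sources used here give no version of it. Each line of the deposited CLIP files is 1 tag with its strand, and the score the authors gave it was not used. Tag counts were made from the deposited lines, counting the same position, strand and barcode once. ΔE2 replicates 2 and 3 were merged into 1 library, and the 6 libraries as labelled were an alternative. The same notes list TopHat 1.3.2 and Bowtie for the RNA-seq. The deposited exon table gives estimated counts per isoform as group totals, an odds ratio and p-values, per the file headers, one of which names Mbnl2 KO; it was read for gene names and places.

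Clusters and loci were counted genome-wide and tested with edgeR 4.0.16 in R 4.3.3 (filterByExpr with a minimum count of 10, TMM, quasi-likelihood test; p-values were adjusted by Benjamini-Hochberg over all tested features, with a threshold of 0.05); C2C12 was not in the fit. DESeq2 1.42.0 was an alternative. The procedure was tested on simulated data. Counting used pandas 2.3.3 and numpy 2.4.6 in Python 3.11.15, intervals scipy 1.17.1, and figures matplotlib 3.10.9. Gene names follow the GRCm38.p6 RefSeq table by order and spacing only. Named are loci with at least 20 forelimb tags, clusters with at least 50 and the sites listed in the choice; Krt2, Krt7, Krt8, Krt13, Krt36 and Krt84 were named after their values were seen. The genes and lists were chosen with earlier results of these data known. Other choices tried were scaling, filtering, merging gaps, collapsing, shared molecules and leaving out each library. PCR copies beyond the barcode are not independent, so Wilson intervals cover counting error only.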

Additional observations from a re-analysis of the deposited data

How the results depend on the processing

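Which keratin features were called depended on the settings, while the direction at Krt77 did not: its cluster passed in 12 of 18 alternatives and its locus in 10 of 18, each negative in all 18. Keratin clusters called, with the share of all tested clusters called in brackets, numbered 3 with library size (26.8%), 6 with all tags as scale (29%), 2, of which 1 higher, with gaps of up to 50 nt merged (19.5%), 4 with shared molecules given to 1 library (31.1%), 4 with molecules of 1 library only, added after the data were seen (37.2%), and 4 with 6 libraries as labelled (40.1%), against 1 (22.5%) as reported. Keratin loci called numbered 3 with library size (14.9% of all tested loci), 4 with all tags (25.3%), 2, of which 1 higher, with gaps of up to 500 nt (11.5%), 2 with shared molecules given to 1 library (15.1%) and 2 with 6 libraries (22.4%), against 1 (10.9%). The larger counts thus came mostly where more of all features were called, and library size and all tags moved the median log2 fold of all clusters to -0.46 and -0.57. With no filter 0 keratin clusters and 0 loci were called by edgeR (25 and 6 at an unadjusted p under 0.05), and with DESeq2 on all features 0 and 0 (5 and 3); under 0.01% of all features were called in either. DESeq2 on the filtered loci called 0 (1 at an unadjusted p under 0.05; 10% of all loci with an adjusted p), loci with gaps of up to 2000 nt gave 0 (3; 7.62%), tags collapsed by 5′ end gave 0 clusters (1; 20.8%) and 0 loci (1; 10.4%), and WT replicates 2 and 3 as 1 library gave 0 clusters (1; 0% of all clusters) and 0 loci (3; 6.56%), by edgeR. Leaving out 1 library gave 0 to 2 clusters (6.53% to 35.4%) and 0 to 2 loci (6.04% to 14%). Without ΔE2 replicate 2, 1 of the 2 clusters called was higher in ΔE2. The replicate numbers did not pair the samples (correlations of deviations -0.15, -0.06 and -0.15), and with them as a block, over 6 libraries, 3 clusters (30.2%) and 2 loci (19.9%) were called.

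The log2 ratio of the type II window was -0.41 with tags collapsed by 5′ end, -0.90 with shared molecules given to 1 library, -0.95 with molecules of 1 library only, and -0.87 to -0.60 leaving out 1 library; that of the type I window was -0.82 to -0.46. The 3′ end difference was -16.6 with tags of 2 or more reads, -19.0 with molecules of 1 library only, -1.44 with 500 nt, and -15.8 to -10.9 leaving out 1 library.

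Some features changed sign; none of them passed the threshold as reported or where its sign changed, though the first Krt6a cluster passed, with a negative fold, in 5 alternatives. With library size these were the first Krt15 cluster (-0.094), the 5′ Krt5 cluster (-0.18), the first Krt4 cluster (-0.26) and the loci of Krt15 (-0.13), Krt5 (-0.036) and Krt4 (-0.11). With all tags they were the same clusters (-0.21, -0.29 and -0.43), the third Krt1 cluster (-0.025) and the same loci (-0.40, -0.32 and -0.41). With no filter they were those clusters (-0.45, -0.51, -0.53 and, for Krt1, -0.23), the 5′ Krt1 cluster (-0.18) and the loci (-0.69, -0.61 and -0.64). DESeq2 on all features gave -0.039 for the first Krt4 cluster and -0.089 and -0.056 for the loci of Krt15 and Krt4. Tags collapsed by 5′ end gave 0.14 for the second Krt15 cluster, 0.081 for the first Krt6a cluster, and 0.077 and 0.26 for the loci of Krt10 and Krt1. Collapse by position gave 0.054 and 0.051 for these loci. Molecules of 1 library only gave -0.036 for the first Krt4 cluster, 0.0015 for the Krt10 locus and 0.080 for the 3′ end share of Krt6a, which was 2.09 with 500 nt and 0.52 with 2000 nt. Leaving out 1 library moved the second Krt5 cluster (-0.41 to 0.18), the second Krt4 cluster (-0.29 to 0.054) and the Krt10 locus (-0.28 to 0.086) across 0, and the 3′ end share of Krt15 (-3.19 to 2.85, against 1.11 as reported, smaller than its spread; -3.32 with tags of 2 or more reads and -3.56 with molecules of 1 library only). In these cases the cause was not tested.

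With 2 ΔE2 libraries and few tags, Krt14 and the genes under 50 tags allow little precision, and the paralogs of Krt6a and Krt14 could not be set apart.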
